A study of Mus musculus with 28 samples.

Results

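Neutrophils are drawn into injured tissue by a small set of chemokines and, once there, release proteins that act as danger signals. The genes described are 9 members of that circuit: the ligands Cxcl1, Cxcl2, Cxcl3 and Cxcl5, their receptor Cxcr2, the alarmins S100a8 and S100a9, and the acute-phase genes Saa3 and Lcn2. They were chosen by name, from 56980 genes in the bulk table, and all 9 were among the 12673 genes tested.

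The tissue was the outflow vein of the mouse arteriovenous fistula (AVF), made by sewing the cut jugular vein into the side wall of the neighbouring carotid artery. Bulk RNA sequencing covered 25 libraries: 7 contralateral jugular veins from 5 female and 2 male mice, 8 early AVFs from 3 female and 5 male mice, and 5 mid and 5 late AVFs from 3 female and 2 male mice each. Per the study's methods, all were C57BL/6 mice that first underwent 5/6 nephrectomy, a loss of kidney mass that models kidney failure, so the control veins carry that surgery too, and the early veins were taken over a span of days. The library titles give the bulk AVFs nominal days of 3 (early), 10 (mid) and 21 (late) after surgery. Age is not in the labels. Single-cell RNA sequencing covered 3 libraries, 1 each for contralateral veins, early AVFs and late AVFs, each a pool of vessels from male and female mice. The labels give no day for the pools, which per the study were taken later on average than the bulk AVFs of the same name. There was no mid pool, and with 1 library a condition no test was made on cells.

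CXC chemokines with an ELR motif bind CXCR2 on neutrophils and set the direction of their migration. They are made by stromal cells and macrophages when interleukin 1, tumour necrosis factor or Toll-like receptor signals activate NF-kB. S100a8 and S100a9 form calprotectin, which makes up much of the neutrophil cytosol, can signal through Toll-like receptor 4 once released and binds zinc and calcium. Saa3 encodes a serum amyloid A made outside the liver, and Lcn2 encodes lipocalin 2, an iron-siderophore-binding protein stored in neutrophil granules and also made by inflamed stromal and epithelial cells.

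The 4 ligand genes lie together on chromosome 5, within 147 kb in the mouse GRCm38 annotation, and S100a8 and S100a9 lie 22.6 kb apart on chromosome 3. RefSeq promoter sequences (build GRCm38.p6) matched 8 of the 9 genes. The 250 bases before the transcription start of 3 ligand genes are shown because these were the member promoters that held the NF-kB-type motif (GGG, 2 bases of any kind, then TTTCC), searched on both strands and printed in capitals.
Cxcl1, chr5:90890995-90891244, plus strand: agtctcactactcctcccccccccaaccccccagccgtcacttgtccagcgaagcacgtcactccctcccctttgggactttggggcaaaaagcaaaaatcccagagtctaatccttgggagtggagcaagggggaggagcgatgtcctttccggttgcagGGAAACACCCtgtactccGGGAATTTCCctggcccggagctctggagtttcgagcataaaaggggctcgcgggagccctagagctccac
Cxcl2, chr5:90903649-90903898, plus strand: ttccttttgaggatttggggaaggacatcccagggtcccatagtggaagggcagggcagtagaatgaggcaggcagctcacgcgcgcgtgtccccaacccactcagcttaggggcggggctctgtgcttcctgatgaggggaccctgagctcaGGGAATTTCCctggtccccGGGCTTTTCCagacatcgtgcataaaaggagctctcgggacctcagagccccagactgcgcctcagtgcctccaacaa
Cxcl3, chr5:90785851-90786100, plus strand: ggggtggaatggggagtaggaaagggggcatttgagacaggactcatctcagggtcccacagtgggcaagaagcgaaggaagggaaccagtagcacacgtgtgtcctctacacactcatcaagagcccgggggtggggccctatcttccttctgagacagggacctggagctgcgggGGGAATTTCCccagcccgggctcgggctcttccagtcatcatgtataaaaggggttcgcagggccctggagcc
Cxcl1 and Cxcl2 each held 2 matches and Cxcl3 held 1, and the copy GGGAATTTCC was common to all 3 promoters, 71, 97 and 73 bases before the start of Cxcl1, Cxcl2 and Cxcl3. The motif was found in 1.41% of 32851 promoters of the same length. No promoter of Cxcr2, S100a8, S100a9, Saa3 or Lcn2 held these letters in this window. A C/EBP-type motif, TTGCNNAA, was found once each in the S100a9, Saa3 and Lcn2 promoters and in 9.56% of all promoters. All motifs were searched on both strands and did not overlap each other in any member. TATAAA was found in the Cxcl3 and S100a8 promoters and in 12.4% of all promoters. These are matches of letters and not measured binding.

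Depth was 20.3 M to 29.9 M counts (M, 1e6) in the contralateral veins, 23.7 M to 67.5 M in the early AVFs, 27.0 M to 33.4 M in the mid AVFs and 27.9 M to 36.9 M in the late AVFs. Genes with a count numbered 11958 to 18283 in the contralateral veins and 17514 to 25141 in the early AVFs. The mid AVFs had 25075 to 26168 and the late AVFs 24529 to 26771. Early AVF 5 and early AVF 6 were the deepest libraries, and they were also the highest for several members, whose levels are scaled to depth. The contralateral veins resembled each other least, with a median Spearman correlation between libraries of 0.678 across genes, against 0.956 among mid AVFs. Smooth muscle markers, summed over 8 genes in CPM (counts per 1e6 counts), ran from 10978 to 22896 CPM in the contralateral veins and from 1141 to 4165 CPM in the AVFs. Skeletal muscle markers, 6 genes summed, ran from 3.06 to 35.1 CPM in the contralateral veins. They ran from 6.78 to 5425 CPM in early, 709 to 8520 CPM in mid and 10.4 to 10238 CPM in late AVFs. Epithelial markers, 8 genes summed, had a median of 0.0438 CPM in contralateral veins and reached 276 CPM in contralateral vein 27. Their highest AVF values were 88.6 CPM in early AVF 7, 168 CPM in mid AVF 9 and 57.4 CPM in late AVF 19. The early, mid and late medians were 4.78, 4.87 and 5.74 CPM. The tissue sampled thus differed between groups and between libraries, and its part in member levels was not tested. In bulk tissue, fewer cells of a type and less RNA per cell cannot be told apart. A difference is called here when edgeR's quasi-likelihood test gave a Benjamini-Hochberg adjusted p under 0.01 with a log2 fold change of at least 1 in size. The labels do not tie a contralateral vein to the AVF of the same mouse, so no comparison was paired.

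In early AVFs, 7 of the 9 members were called higher than in contralateral veins: the 4 ligands, the receptor and both alarmins. In these 7 genes the lowest early AVF lay above the highest contralateral vein. Among all genes tested, 6.17% were called higher and 4.47% had every early library above every control. The median log2 fold change of the members was 5.86, beside -0.01 over all genes tested. In mid and in late AVFs the 4 ligands and Cxcr2 were called higher, 5 of 9 members each, where 2.74% and 2.49% of all genes were. For these 5 every AVF library lay above every control at both times, as it did for 7.32% of all genes in mid and 6.25% in late AVFs. S100a8, S100a9, Saa3 and Lcn2 were not called at either time. Genes were tested if their mean normalized count over all 25 libraries was at least 100. Cxcl2, Cxcl3, Cxcl5 and Cxcr2 held 61, 12, 103 and 68 counts in all over the 7 contralateral veins. These members passed that filter through the AVFs, where they were high, so their calls and separation are not independent of it.

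**Figure D1:**
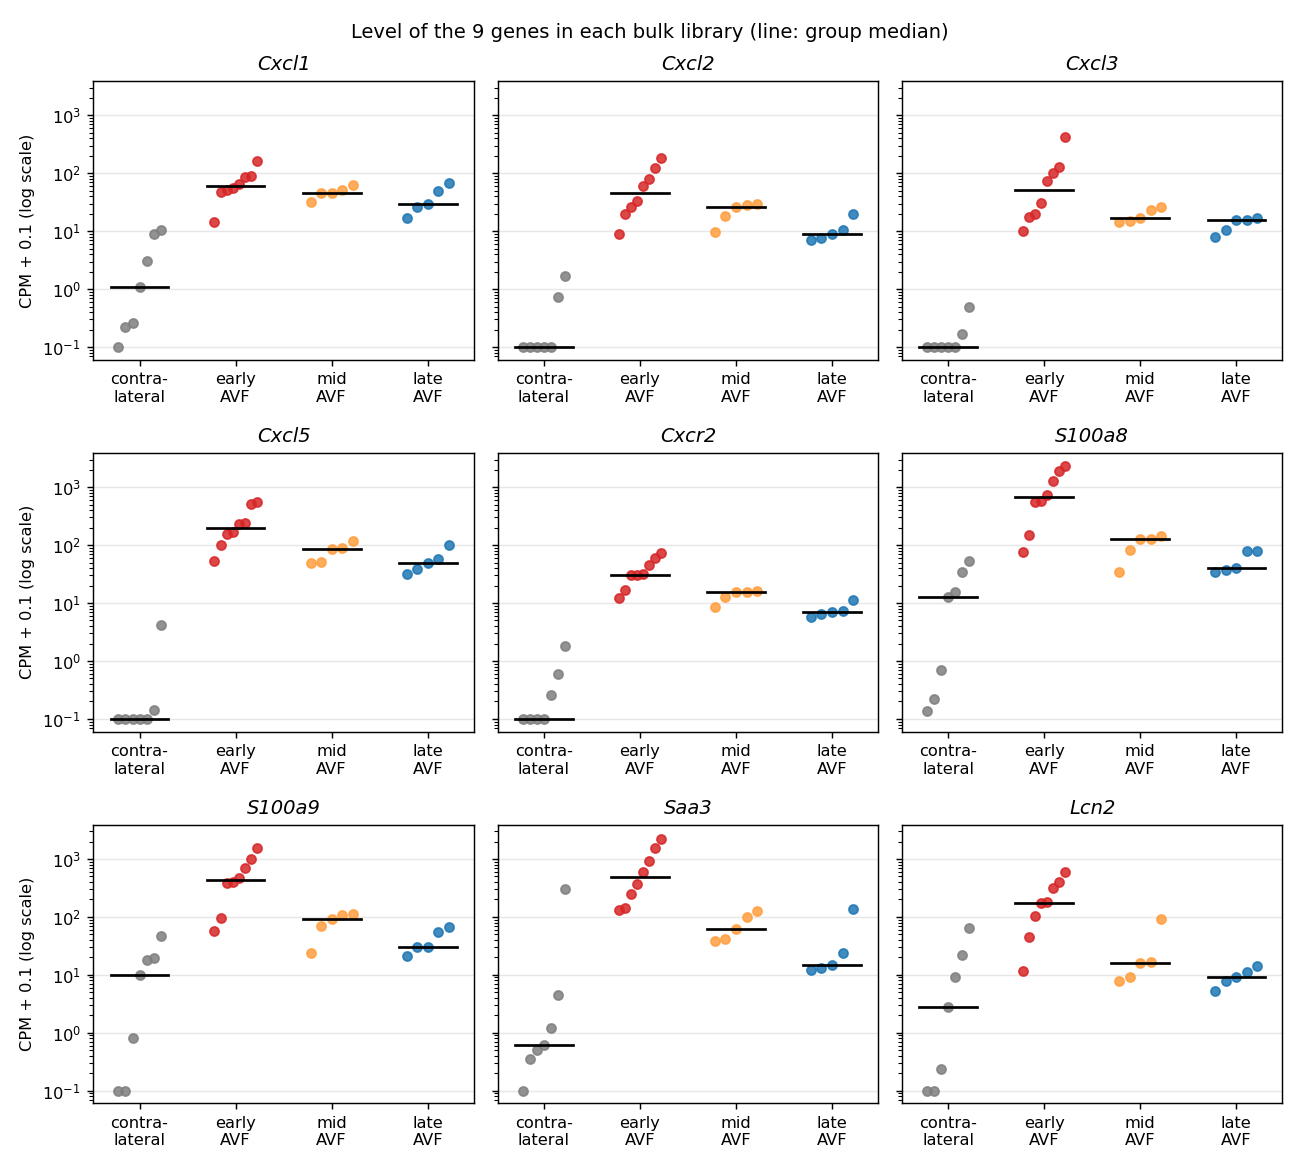
Each point is 1 bulk library, in CPM plus 0.1 on a log scale, with the group median as a line. For Cxcl1, Cxcl2, Cxcl3, Cxcl5 and Cxcr2 every AVF library sat above every contralateral vein, whereas Saa3 and Lcn2 overlapped, with contralateral vein 35 the highest control.

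Cxcl3, a ligand of CXCR2, was close to absent in control veins. Of the 7 contralateral veins, 5 had no count, and the others were at 0.395 and 0.0701 CPM. The early AVFs ran from 9.86 CPM through a median of 52.3 to 421 CPM. The mid AVFs were at 16.6, 14.3, 14.7, 26.1 and 23.1 CPM, and the late AVFs at 15.3, 15.8, 16.6, 10.5 and 7.76 CPM. The early libraries were spread 42.7-fold, and the mid and late libraries were close together, at the low end of the early range. The log2 fold changes from the contralateral vein were 10.42 ± 1.12 (SE), 8.02 ± 1.05 and 7.49 ± 1.03 at the early, mid and late times, with edgeR adjusted p of 1.38e-07, 7.04e-06 and 1.66e-05. With so few counts in the controls the size depends on the prior count, and a prior count of 2 gave 9.54 for the early difference. Without contralateral vein 27, the higher of the 2 controls with counts, the log2 values were 12.37, 10.16 and 9.63.

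Cxcl5, a ligand known chiefly from epithelial and stromal cells, had the highest ligand level per kilobase of exon in early AVFs. It was at 4.03 and 0.0453 CPM in contralateral veins 27 and 34 and had no count in the other 5. The early AVFs ran from 53.4 CPM through a median of 199 to 549 CPM. The mid AVFs ran from 49.2 through 85.7 to 118 CPM and the late AVFs were at 31.5, 99.6, 58.4, 48.8 and 38.2 CPM. All 18 AVF libraries were more than 7 times the highest control. The log2 fold changes were 8.72 ± 1.19, 7.04 ± 1.13 and 6.54 ± 1.11 (adjusted p 4.81e-06, 0.000114 and 0.000268, edgeR). These sizes rest on contralateral vein 27, which held all but 1 of the controls' Cxcl5 counts. Without it the log2 values were 14.38, 12.86 and 12.35, against a group that is almost empty, and all 3 stayed called. Vein 27 was also the highest control for epithelial markers, at 276 CPM, and the part of this was not tested.

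Cxcl2, the chemokine also known as MIP-2, had no count in 5 contralateral veins and was at 0.633 and 1.58 CPM in the others. The early AVFs ran from 9.03 through 46.5 to 185 CPM, the mid AVFs from 9.49 through 26.0 to 29.8 CPM and the late AVFs from 6.92 through 8.81 to 19.4 CPM. Its log2 fold changes were 7.68 ± 1.16, 6.08 ± 1.11 and 5.02 ± 1.06 (edgeR adjusted p 1.98e-05, 0.000459 and 0.00238), and 9.11, 7.57 and 6.52 without contralateral vein 35. Cxcl1, the chemokine also known as KC, was the ligand with the highest control level, from 0 through 0.982 to 10.3 CPM. It reached 14.4 to 164 CPM in early AVFs, 31.7 to 63.8 CPM in mid AVFs and 17.1 to 68.5 CPM in late AVFs. The early and mid log2 fold changes were 4.43 ± 0.87 and 3.84 ± 0.88 (edgeR adjusted p 0.000477 and 0.00410). The late one was 3.51 ± 0.87 (adjusted p 0.00854), and this call was near the threshold: it held in 6 of the 25 fits that left out 1 library, with an adjusted p of up to 0.0251 without late AVF 23. The mid call was lost without mid AVF 13 (adjusted p 0.0104).

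Cxcr2, the neutrophil receptor for these ligands, had no count in 4 contralateral veins and was at 0.158, 0.491 and 1.72 CPM in the others. The early AVFs ran from 12.3 through 30.8 to 74.2 CPM, with early AVF 4 the highest. The mid AVFs were at 15.2, 15.6, 8.44, 15.8 and 12.5 CPM and the late AVFs at 7.25, 11.4, 6.96, 6.40 and 5.66 CPM, so that every late AVF lay below every early AVF, as in 8.39% of all genes tested. The log2 fold changes from control were 6.74 ± 1.03, 5.27 ± 0.99 and 4.43 ± 0.96 (adjusted p 2.44e-05, 0.000642 and 0.00297, edgeR). Without contralateral vein 633, the control with most Cxcr2, they were 8.30, 6.84 and 6.00.

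S100a8 and S100a9 had the highest early levels per length among the members, with medians of 955 and 838 CPM per kilobase of exon. S100a8 ran from 0.0392 through 12.9 to 52.8 CPM in contralateral veins and from 75.9 through 663 to 2364 CPM in early AVFs. The mid AVFs were at 145, 128, 34.9, 127 and 82.1 CPM and the late AVFs at 40.1, 77.6, 77.8, 37.0 and 34.1 CPM. Mid and late AVFs overlapped 1 control, contralateral vein 35, and lay above the other 6, and early AVFs lay above all 7. The log2 fold changes were 5.86 ± 1.04 (adjusted p 0.000153), 2.64 ± 0.95 (adjusted p 0.0666) and 1.69 ± 0.93 (adjusted p 0.269, edgeR). S100a9 had the same order, with log2 fold changes of 5.42 ± 1.04 (adjusted p 0.000364), 2.57 ± 0.96 (adjusted p 0.0808) and 1.56 ± 0.94 (adjusted p 0.322). Its early AVFs ran from 57.3 through 438 to 1566 CPM and its controls from 0 through 9.94 to 47.1 CPM, again with vein 35 the highest. Without vein 35 the mid differences were 3.24 for S100a8 and 3.27 for S100a9 (edgeR adjusted p 0.0292 and 0.0288), still not called. Across the 25 libraries, S100a8 and S100a9 had a Pearson r of 0.991 on the log2 CPM scale, the highest of any pair of members.

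The Saa3 calls of the quasi-likelihood fit turned on 1 control library. Contralateral vein 35 held 302 CPM and the other 6 veins held 0 to 4.35 CPM. The early AVFs ran from 129 through 483 to 2245 CPM, the mid AVFs were at 128, 38.1, 61.6, 41.8 and 97.7 CPM, and the late AVFs were at 14.7, 134, 12.8, 23.7 and 11.9 CPM. Every AVF lay above those 6 veins, whereas vein 35 lay above all mid and late AVFs and above 3 early AVFs. With all libraries the log2 fold changes were 4.13 ± 1.34 (adjusted p 0.0263), 0.73 ± 1.30 (adjusted p 0.787) and -0.16 ± 1.31 (adjusted p 0.960), and none was called. Without vein 35 they were 9.33, 5.98 and 5.11, with edgeR adjusted p of 1.27e-06, 0.000216 and 0.000915, and all 3 were called. With every library included, DESeq2 and edgeR's likelihood ratio test each called 9 of 9 members higher early, Saa3 among them. Of the 12673 genes tested, these 2 tests called 2440 and 2166 early, in either direction.

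Lcn2 was also highest among controls in vein 35, at 63.9 CPM, with 0, 0, 0.136, 2.73, 9.04 and 21.6 CPM in the other 6. The early AVFs ran from 11.7 through 177 to 592 CPM. The mid AVFs were at 90.8, 15.7, 8.91, 7.77 and 16.8 CPM and the late AVFs at 7.83, 14.1, 11.1, 8.92 and 5.11 CPM, within the control range for all late AVFs. The log2 fold changes were 4.03 ± 1.13 (adjusted p 0.0106), 1.01 ± 1.10 (adjusted p 0.628) and -0.57 ± 1.13 (adjusted p 0.810, edgeR), none of them called. The early difference was called without vein 35 (5.23, adjusted p 0.00217), without early AVF 1 (adjusted p 0.00994), without early AVF 10 (adjusted p 0.00842) and without mid AVF 9 (adjusted p 0.00941). With every library included, DESeq2 also called it, at an adjusted p of 0.000639. Without mid AVF 9 the mid difference was -0.18. That library also had the highest epithelial marker sum of the mid AVFs, at 168 CPM, and the part of this was not tested.

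**Figure D2:**
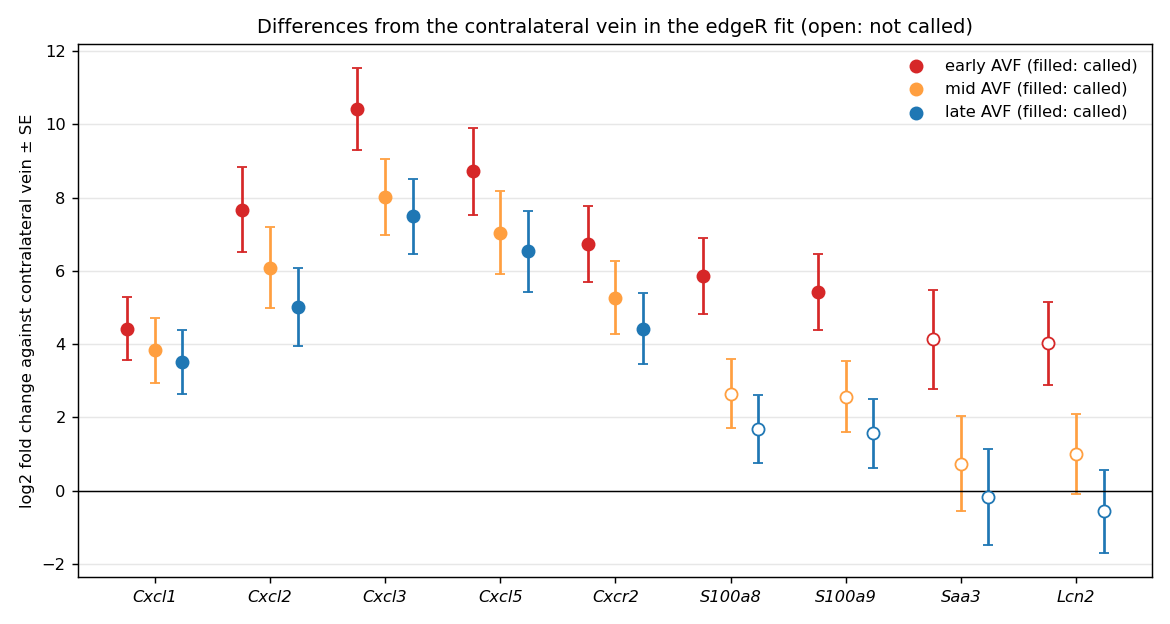
Log2 fold changes from the contralateral vein with their SE from the edgeR fit, for early, mid and late AVFs. Filled points were called and open points were not. In this quasi-likelihood fit of all libraries, ligands and Cxcr2 were called at all 3 times and S100a8 and S100a9 at the early time alone. Saa3 and Lcn2 were called at no time in it.

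These calls rest on a spread estimated over all 4 groups. With only the 2 groups compared in the fit, 6 members were called early, with Cxcl1 at an adjusted p of 0.0102, 1 was called mid and 0 late. Female mice alone and male mice alone each gave 4 early calls of members, beside 327 and 1072 over all genes tested, in either direction. Cxcl2, Cxcl3 and Cxcl5 were among the 4 in both sexes, with Cxcr2 the other in females and Saa3 the other in males. The early difference was not called to differ between the sexes for any member: the 9 adjusted p of the interaction ran from 0.313 to 0.993, while 57 genes passed 0.05. Saa3 had the lowest, with an early median of 245 CPM in 3 females and 906 CPM in 5 males, and vein 35 was a female control. The interaction estimates, female minus male, ran from -8.89 for Saa3 to 2.53 for Cxcr2 on the log2 scale. With 2 male controls the test cannot show that the sexes were alike.

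After the early time all 9 medians were lower, and edgeR's quasi-likelihood test called none of the falls with all libraries in the fit. Between late and early AVFs the log2 differences ran from -0.92 ± 0.84 for Cxcl1 to -4.59 ± 1.35 for Lcn2, with a median of -2.93, beside 0.01 over all genes tested. The edgeR test called 0 of 9 members, where 2.28% of all genes were called lower. At an adjusted p under 0.05 it called 4: Cxcl3 (adjusted p 0.0420), S100a8 (adjusted p 0.0194), S100a9 (adjusted p 0.0315) and Lcn2 (adjusted p 0.0358). At an unadjusted edgeR p under 0.05 there were 8, all but Cxcl1, beside 2016 of the 12673 genes tested, counted in either direction. DESeq2 called 4 and edgeR's likelihood ratio test 3. Leaving out 1 contralateral vein each gave 1 call: Cxcl5 without vein 27 (adjusted p 0.00947), S100a8 without vein 28 (0.00862) or vein 632 (0.00851), and Saa3 without vein 35 (0.00741). Between mid and early AVFs 0 of 9 were called, with 0% of all genes called lower. An unadjusted edgeR p under 0.05 was passed by 5 members: Cxcl3, S100a8, S100a9, Saa3 and Lcn2. Of the 12673 genes tested, 1614 passed it in either direction. Every mid AVF lay below every early AVF for Saa3, as in 5.2% of all genes. DESeq2 also called 0 members there. Between late and mid AVFs 0 of 9 were called, 0% of all genes, and DESeq2 called 0. By edgeR no member had an unadjusted p under 0.05, where 39 of all genes tested did. No member's late and mid libraries were separate, where 1.06% of all genes had every late library below every mid one.

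The ratio of medians, early over late, was 2.03 for Cxcl1, 3.41 for Cxcl3, 4.07 for Cxcl5, 4.43 for Cxcr2 and 5.27 for Cxcl2, and it was 14.6 for S100a9, 16.5 for S100a8, 19.8 for Lcn2 and 32.7 for Saa3. The receptor and ligands thus had smaller ratios than the alarmins and acute-phase genes, a comparison of medians with no test. Per kilobase of exon, the early medians stood in the order S100a8, S100a9, Saa3, Cxcl5, Lcn2, Cxcl1, Cxcl2, Cxcl3 and Cxcr2, from 955 to 10.1 CPM per kilobase. Each neighbour in that order overlapped the next in range.

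The 8 early AVFs differed among themselves by 6.04-fold for Cxcr2 and by up to 50.8-fold for Lcn2, and part of that spread moved with neutrophil marker level. The summed level of 14 neutrophil markers that are not members was 212 CPM in early AVF 10, 258 CPM in early AVF 1 and 557 to 1064 CPM in the other 6. In contralateral veins the same sum was 196 to 330 CPM, but 31.6% of it was Il1r2 and 29.5% G0s2, while the neutrophil receptor Csf3r was at 0.0392 to 2.67 CPM there and at 57.0 to 190 CPM in early AVFs. Il1r2 and G0s2 were still 17.5% and 13.8% of the early sum, beside 14.0% for Csf3r, so the sum may not follow neutrophils alone. Across the 8 early AVFs, log2 CPM had a Pearson r with the log2 marker sum of 0.95 for S100a9 (Spearman rho 0.98), 0.94 for S100a8 (rho 0.95), 0.88 for Cxcl5 (rho 0.93), 0.85 for Lcn2 (rho 0.55), 0.85 for Cxcl2 (rho 0.90), 0.78 for Cxcr2 (rho 0.60), 0.78 for Cxcl3 (rho 0.90), 0.77 for Cxcl1 (rho 0.90) and 0.71 for Saa3 (rho 0.64).

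By a two-sided exact permutation test, the adjusted p over these 9 relations ran from 0.00670 for both alarmins to 0.0295 for Cxcr2, with Saa3 at 0.0501. For Spearman's rho it was 0.00357 for S100a9 and 0.00513 for S100a8, 0.00670 for Cxcl5 and 0.00685 for the other 3 ligands, and 0.149, 0.124 and 0.171 for Cxcr2, Saa3 and Lcn2. Without early AVF 1 and early AVF 10, the 2 libraries farthest from the median marker level, r was 0.74, 0.82, 0.70 and 0.86 for Cxcl1, Cxcl2, Cxcl3 and Cxcl5 and 0.83 and 0.84 for S100a8 and S100a9. It was 0.08 for Cxcr2, 0.06 for Saa3 and 0.11 for Lcn2, whose relation therefore rested on those 2 libraries. Leaving out early AVF 1 alone left 4 members past an adjusted p of 0.05. Monocyte and macrophage markers, 11 genes summed, also varied, from 3757 CPM in early AVF 7 to 13126 CPM in early AVF 6, as did depth, and their part in these relations was not tested.

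**Figure D3:**
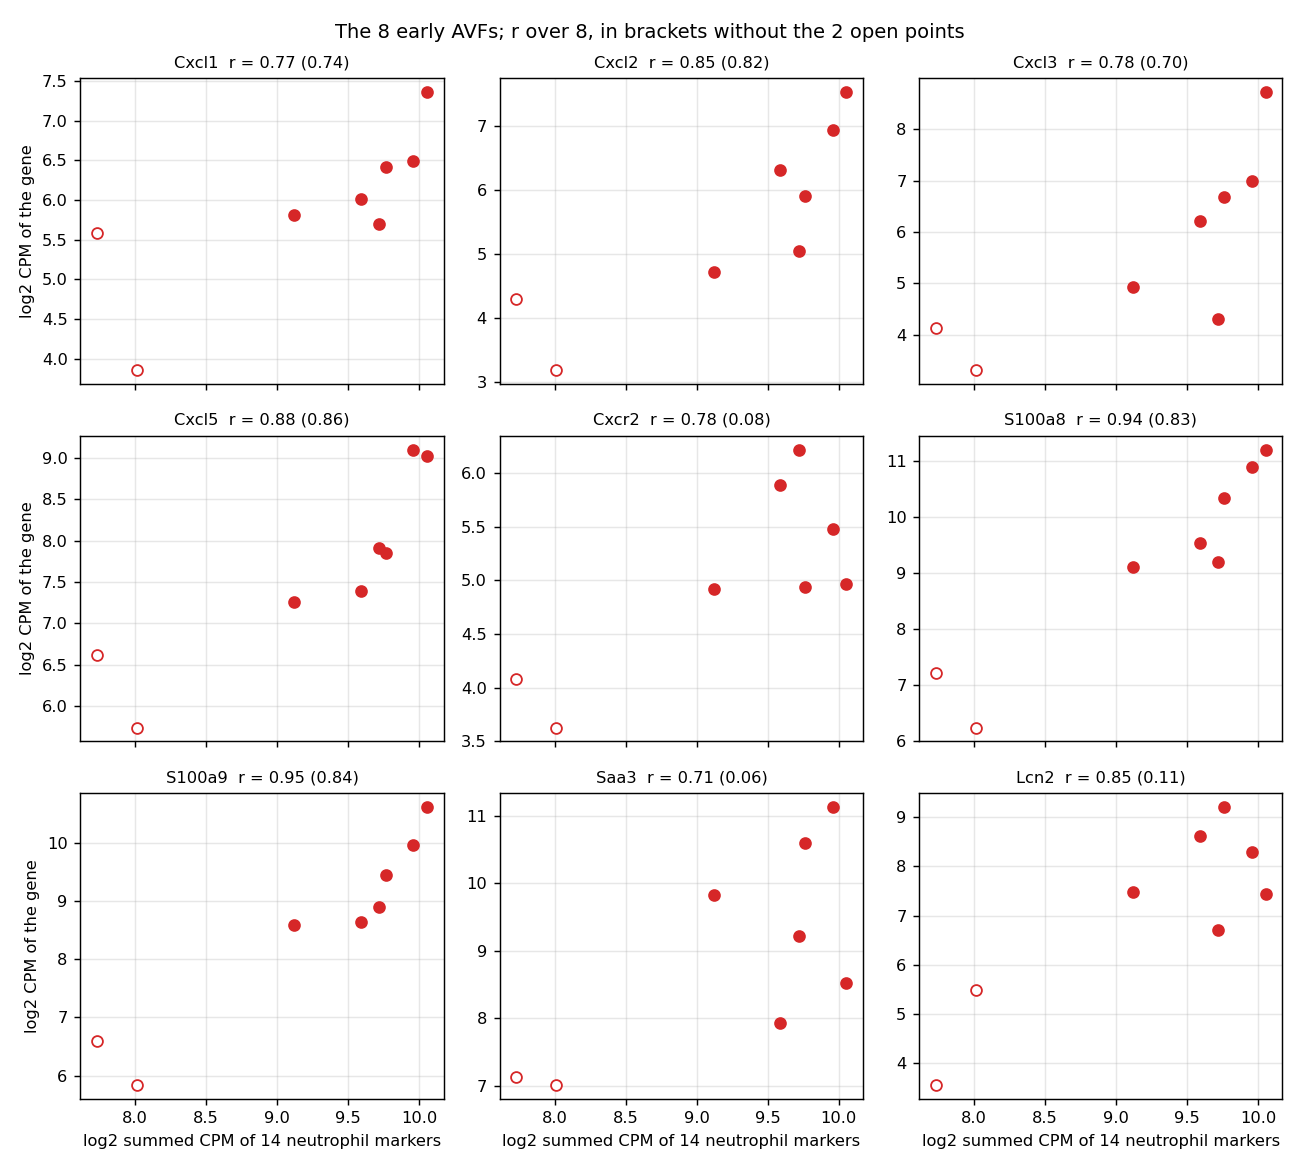
Each panel plots log2 CPM of 1 gene against the log2 summed CPM of 14 neutrophil markers, with 1 point per early AVF. Open points are early AVF 1 and early AVF 10, and r without them is in brackets: the alarmins and ligands kept an r of 0.70 or more, and Cxcr2, Saa3 and Lcn2 did not.

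The non-member genes whose log2 CPM was most like each member over the 25 libraries were named by a fixed rule, 3 per member. They were Adam8, Rasgrp4 and Mcemp1 for Cxcr2 (Pearson r 0.980, 0.973 and 0.972), Slc15a3, Ccl3 and Dnph1 for Cxcl3 (0.980, 0.978 and 0.975) and C130050O18Rik, E2f7 and Acod1 for Cxcl5 (0.983, 0.982 and 0.977). For Cxcl2 they were Slc15a3, C130050O18Rik and Gm5150 (0.968, 0.964 and 0.964), and for Cxcl1 Ccdc88b, Racgap1 and Nmnat3 (0.958, 0.956 and 0.956). S100a8 had Msr1, I830077J02Rik and Hmox1 (0.949, 0.940 and 0.938) and S100a9 had Msr1, Tnfsf13os and Hmox1 (0.946, 0.935 and 0.934). Saa3 had Gm5150, Kif2c and Clec4d (0.943, 0.938 and 0.929), and Lcn2 had Pglyrp1, Mrps22 and Hmox1 (0.913, 0.913 and 0.906). These values describe the pattern over groups and carry no test.

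The single-cell libraries locate the transcripts. Of 26438 barcodes, 16893 were kept: 6319 from contralateral veins, 4753 from early AVFs and 5821 from late AVFs, with median depths of 2751, 8951 and 15425 unique molecular identifiers (UMIs). Kept barcode sequences shared between libraries numbered 5 or 6 for each pair. Cells fell into 16 clusters, which were named from fixed marker lists, and 1 shallow cluster of 1175 cells stayed unnamed. Neutrophils were 61, 780 and 286 cells in contralateral, early and late pools, or 0.965%, 16.4% and 4.91% of kept cells (exact 95% intervals 0.739 to 1.24%, 15.4 to 17.5% and 4.37 to 5.50%, counting error only). Fibroblasts were 1860, 414 and 1957 cells and the monocyte/macrophage class 679, 2002 and 1590 cells. The upper limit of 6000 genes a cell was passed by 26, 841 and 588 barcodes of the contralateral, early and late pools. Kept early fibroblasts had a median of 5352 genes, near that limit, so their number and UMI shares may be too low. No other limit was tested. Most contralateral fibroblasts were in cluster 4 and most AVF fibroblasts in cluster 1. Most contralateral macrophages were in cluster 12 and most AVF ones in clusters 2 and 3, so each comparison within these 2 classes sets different clusters side by side.

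Stromal and myeloid cells divided the ligands between them. In the early pool, fibroblasts held 87.7% of the Cxcl5 UMIs and 48.3% of the Cxcl1 UMIs, while the monocyte/macrophage class held 44.3% of Cxcl1, 68.9% of Cxcl2 and 86.4% of Cxcl3. Neutrophils held 26.0% of Cxcl2 and 10.2% of Cxcl3. In the late pool, fibroblasts held 95.7% of Cxcl5 and 83.4% of Cxcl1, and the monocyte/macrophage class 73.0% of Cxcl2 and 76.3% of Cxcl3. In contralateral veins fibroblasts held 79.4% of 6417 Cxcl1 UMIs and the monocyte/macrophage class 54.2% of 28086 Cxcl2 UMIs, and Cxcl3 and Cxcl5 had 63 and 46 UMIs in all. Such a share follows the number and depth of a class's cells as well as its level. The monocyte/macrophage class was 10.7%, 42.1% and 27.3% of kept cells in contralateral, early and late pools, and fibroblasts were 29.4%, 8.71% and 33.6%.

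**Figure D4:**
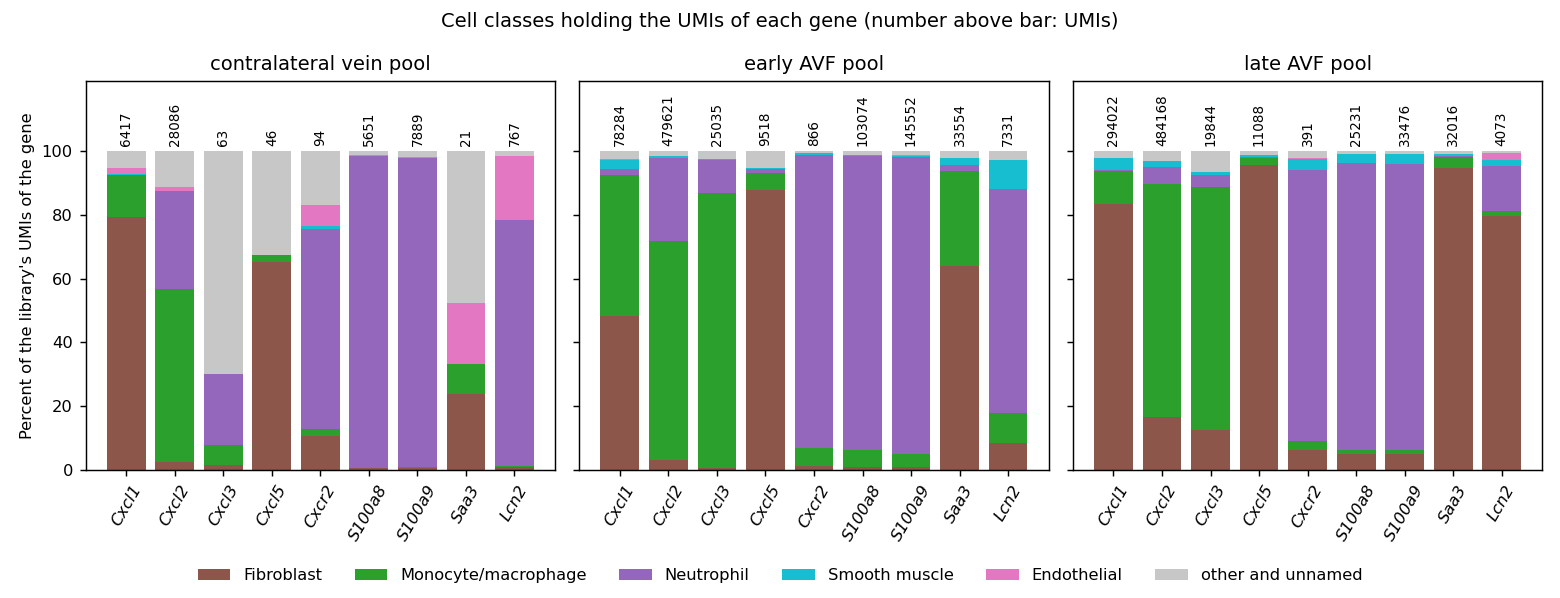
Bars give the percent of each gene's UMIs held by each cell class in the contralateral, early and late pools, with the number of UMIs above the bar. Cxcl5 was fibroblast-held in both AVF pools, Cxcl3 macrophage-held, and Cxcr2, S100a8 and S100a9 neutrophil-held, whereas Lcn2 was mostly in neutrophils early (70.2%) and in fibroblasts late (79.7%).

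Levels within a class are UMIs per 1e6 UMIs (UPM), the gene's UMIs over all UMIs of the class, with exact 95% Poisson intervals for counting error. Cxcl5 in fibroblasts was at 2.31 UPM (1.56 to 3.30) in contralateral veins, 715 UPM (interval bounds 699.8 and 730.6) in early AVFs and 213 UPM (209 to 218) in late AVFs. In the early monocyte/macrophage class it was at 18.2 UPM, no higher than the 21.9 UPM in B cells and 18.6 UPM in erythroid cells, which serve as a background of free RNA. Cxcl1 in fibroblasts was at 393, 3236 and 4934 UPM in contralateral, early and late pools, and in the monocyte/macrophage class at 252, 1197 and 1263 UPM, against a background of 147 UPM in early B cells. Over all cells the pools held 220, 1403 and 2987 UPM of Cxcl1. The monocyte/macrophage class was thus below the whole pool early and late and above it in contralateral veins. The late pool thus had a higher fibroblast Cxcl1 level than the early pool, while the bulk late median was lower than the early one, in AVFs taken at other times after surgery.

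Cxcl2 was highest per UMI in neutrophils, at 41973, 38417 and 25369 UPM in contralateral, early and late pools. In the monocyte/macrophage class it was at 4557, 11407 and 14705 UPM and in fibroblasts at 57.0, 1247 and 1625 UPM. Early B cells and erythroid cells held 247 and 268 UPM. Cxcl3 was at 1.20, 746 and 630 UPM in the monocyte/macrophage class and at 67.9, 782 and 724 UPM in neutrophils, with 4 and 14 UMIs behind the contralateral values. Over the 3 pools together, Cxcl3 was at 1161, 87.2 and 2.70 UPM in clusters 2, 3 and 12 of the monocyte/macrophage class. Its 14.0 UPM in early fibroblasts lay between the 12.5 UPM of B cells and the 20.1 UPM of erythroid cells. In cells thinned to 1000 UMIs each, Cxcl3 was seen in 17.2% of early macrophages and 22.6% of early neutrophils, and in 37.6% and 35.5% unthinned, beside 7.89% (10.0% unthinned) of early B cells. Thinning left out shallower cells, keeping 1991 of 2002 macrophages, 743 of 780 neutrophils and 38 of 40 B cells.

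Bulk and pooled levels differed most for Cxcl2 and Cxcl1. In bulk control veins Cxcl2 was at 0 to 1.58 CPM, and the contralateral pool held 961 UPM over all cells, above every other member there. Cxcl1 was at 0 to 10.3 CPM in bulk controls and at 220 UPM in that pool. S100a8, S100a9, Cxcr2 and Cxcl3 also lay above their bulk control range, at 193, 270, 3.22 and 2.16 UPM, and Cxcl5, Saa3 and Lcn2 lay within it, at 1.57, 0.719 and 26.3 UPM. In the early pool Cxcl1, Cxcl2, Cxcl3 and S100a9 were above the bulk range, at 1403, 8595, 449 and 2608 UPM, and the other 5 were within it. In the late pool Cxcr2, at 3.97 UPM, was below its bulk range and the other 8 were above theirs, with Cxcl3 at 202 UPM against 7.76 to 16.6 CPM and Cxcl1 at 2987 UPM against 17.1 to 68.5 CPM. Bulk tissue was frozen and ground, and cells for the pools were released by warm enzyme digestion. The 2 scales are not the same unit, and the part of the preparation in these levels was not tested.

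Cxcr2 was mostly a neutrophil transcript. Neutrophils held 62.8%, 91.7% and 85.2% of its UMIs in contralateral, early and late pools. Its level per neutrophil UMI was 286 UPM (218 to 369), 244 UPM (228 to 262) and 325 UPM (291 to 362), and in early fibroblasts and macrophages it was 0.856 and 1.76 UPM. The contralateral interval overlapped those of both AVF pools, and the early and late intervals were apart, while neutrophils went from 0.965% to 16.4% and 4.91% of cells.

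S100a8 and S100a9 followed the same class. Neutrophils held 97.7% and 97.2% of their UMIs in contralateral veins, 92.0% and 93.2% in early AVFs, and 90.0% and 89.6% in late AVFs. S100a8 per neutrophil UMI was at 26794, 29189 and 22170 UPM and S100a9 at 37190, 41767 and 29271 UPM in contralateral, early and late pools. The early monocyte/macrophage class held 193 UPM of S100a8 and 203 UPM of S100a9. That is within the range of the other early classes that are not neutrophils: B cells held 43.8 UPM of each, T/NK cells 133 and 268 UPM, endothelial cells 214 and 432 UPM and platelets 290 and 506 UPM of S100a8 and S100a9. The ratio of S100a8 to S100a9 UMIs was 0.699 (0.693 to 0.705) in early neutrophils. Early fibroblasts were at 0.702 (0.646 to 0.763), the monocyte/macrophage class at 0.953 (0.919 to 0.989), endothelial cells at 0.495 (0.403 to 0.606) and T/NK cells at 0.497 (0.411 to 0.599), the last 3 outside the neutrophil interval. The part of free RNA in these values was not tested. The top 10% of early macrophages by S100a8 held 86.0% of the class's S100a8 UMIs. Over the 3 pools together, clusters 2, 3 and 12 of that class differed. They were at 182, 23.3 and 4.72 UPM of S100a8 and at 186, 32.7 and 11.1 UPM of S100a9.

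Saa3 was led by fibroblasts in both AVF pools, with a myeloid share in the early pool. Fibroblasts held 63.9% of 33554 UMIs early and 94.7% of 32016 UMIs late, at 1835 and 610 UPM, against 0.386 UPM in contralateral fibroblasts, which is 5 UMIs. The monocyte/macrophage class held 29.8% of the early UMIs and 3.30% of the late ones, at 345 and 44.0 UPM, and early erythroid cells held 40.2 UPM. Both values of the monocyte/macrophage class were below those over all cells, 601 UPM early and 325 UPM late. The contralateral pool had 21 Saa3 UMIs in all.

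Lcn2 changed its leading class. Neutrophils held 77.3% of its UMIs in contralateral veins and 70.2% in early AVFs, and fibroblasts held 79.7% in late AVFs, where neutrophils held 14.1%. Per neutrophil UMI it was at 2877, 1584 and 561 UPM, and in fibroblasts at 0.617, 53.8 and 65.3 UPM, in contralateral, early and late pools. The first fibroblast value rests on 8 UMIs, and the early and late ones (49.6 to 58.1 and 63.1 to 67.6 UPM) lay close but apart. Kept fibroblasts went from 414 to 1957 cells, and the part of the upper gene limit in that number was not tested. Those fibroblast UMIs came from few cells, since the top 10% of fibroblasts by Lcn2 held 97.3% of them late. Endothelial cells held 19.9% of the contralateral UMIs, at 51.5 UPM, and early smooth muscle cells held 137 UPM.

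**Figure D5:**
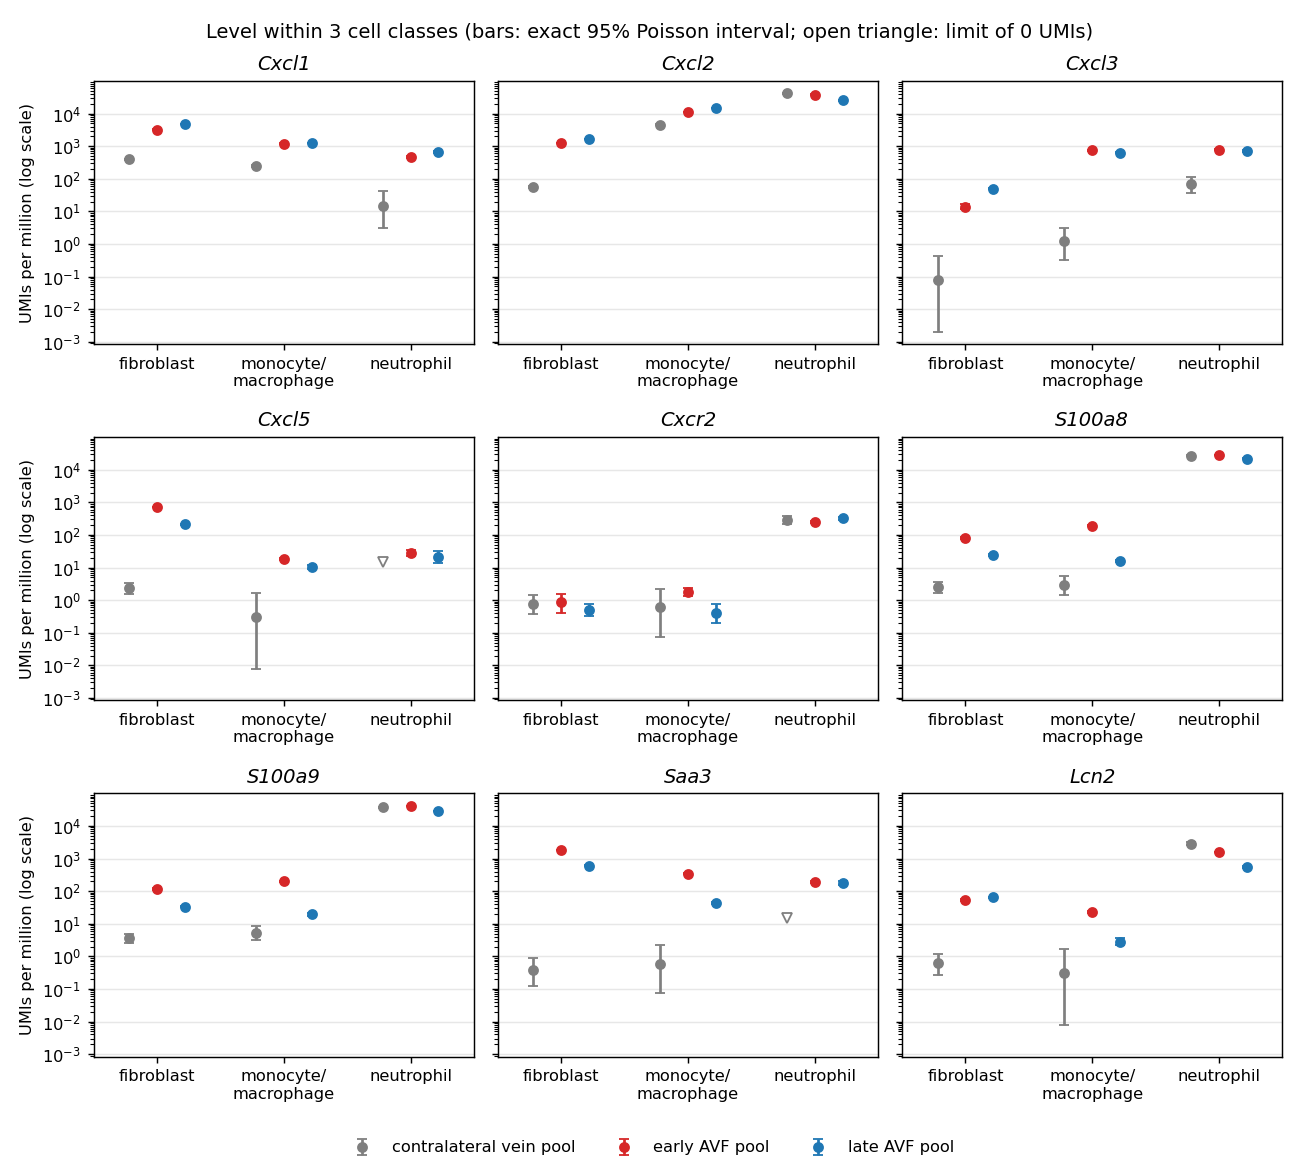
UPM on a log scale within fibroblasts, the monocyte/macrophage class and neutrophils, in the contralateral, early and late pools, with exact Poisson intervals. Open triangles mark the limit that 0 UMIs allow. The neutrophil levels of Cxcr2, S100a8 and S100a9 stayed within 2-fold over the pools, and fibroblast Cxcl5, Saa3 and Lcn2 were over 50-fold higher in both AVF pools than in the contralateral pool.

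UMIs of 3 or 4 ligands were often seen in the same AVF fibroblast or macrophage, and less often in B cells, taken above as background. In early fibroblasts, 53.6% had UMIs of 3 of the 4 ligands and 14.5% of all 4, and in late fibroblasts 32.2% and 5.83% did. The monocyte/macrophage class was at 35.4% and 5.84% early and at 36.7% and 5.16% late. Early smooth muscle cells were at 20.5% and 3.12%, and contralateral fibroblasts at 0.161% and 0%. Early B cells were at 12.5% and 2.5%, with a further 52.5% holding 2 ligands, at a median depth of 4048.5 UMIs. Late B cells were at 16.2% and 1.35%, at a median of 5728 UMIs. These shares were not thinned, and depth moves with them: the median was 31839 UMIs in early fibroblasts, 25062 in late fibroblasts, 13133 in early macrophages, 21435 in early smooth muscle cells and 4374 in contralateral fibroblasts. The part of depth and of free RNA was not tested.

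Other neutrophil chemotaxis genes were followed in a fixed list of 15, of which 12 were tested. In early AVFs 7 were called higher and 0 lower, with a median log2 fold change of 3.05. Of all genes tested, 6.17% were called higher and 6.45% lower early, 2.74% and 3.31% mid, and 2.49% and 2.85% late, and the counts of this and the next lists stand beside those shares. Fpr1, a receptor for formylated peptides, rose by 9.47 ± 0.97 (adjusted p 6.61e-08), Fpr2 by 5.77 ± 1.12 (adjusted p 0.000397) and Cxcr4, which holds neutrophils in marrow, by 3.78 ± 0.82 (adjusted p 0.00129, edgeR). The others called were Alox5ap, C5ar1, Ccr1 and Pf4. In mid and in late AVFs Fpr1 alone of the 12 was called. Cxcr1, the second receptor of this ligand family, was too low to test and had no count in contralateral veins and up to 4.17 CPM in early AVFs. Csf3, the neutrophil growth factor, was likewise untested, with no count in contralateral veins and 0.0317 to 4.27 CPM in early AVFs. In late against early AVFs 2 of the 12 were called lower, Pf4 (-3.80 ± 0.76, adjusted p 0.00372) and Alox5ap (-2.18 ± 0.43, adjusted p 0.00356).

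Of 20 tested upstream cytokines, receptors and NF-kB regulators, 4 were called higher in early AVFs and 3 in mid and late AVFs, and none lower, with a median early log2 fold change of 0.48. Il1rn, the interleukin 1 receptor antagonist, rose by 9.01 ± 0.69 (adjusted p 6.43e-10) and Tnf by 6.59 ± 1.19 (adjusted p 0.000187, edgeR). Il1a had no count in any contralateral vein, and its early mean of 6.93 CPM was at least 391-fold higher than 3 counts over that group. Il1b, which drives ligand transcription through the interleukin 1 receptor, rose by 4.05 ± 1.07 early (adjusted p 0.00651), and was at 3.35 ± 1.09 mid (adjusted p 0.0417) and 2.56 ± 1.06 late (adjusted p 0.124). In the early pool Il1b was at 9003 UPM in neutrophils, 2413 UPM in the monocyte/macrophage class and 28.6 UPM in fibroblasts, and its receptor Il1r1 at 7.70, 4.35 and 178 UPM.

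Other CXC chemokines and receptors went in both directions. Of 9 tested, Cxcl16, a membrane-bound chemokine of macrophages, was the 1 called higher at each time, by 2.38 ± 0.48 early (adjusted p 0.000692), 2.09 ± 0.51 mid and 2.10 ± 0.51 late. Cxcl13, a B cell attractant, was called lower in mid (-5.29 ± 1.10, adjusted p 0.00165) and late AVFs (-4.64 ± 1.06, adjusted p 0.00454, edgeR). The list's median early log2 fold change was -0.40.

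Of 18 tested alarmin receptors, other alarmins and acute-phase genes, 7 were called higher and 1 lower in early AVFs, with a median log2 fold change of 0.96. Mmp8, neutrophil collagenase, rose by 8.84 ± 1.25 (adjusted p 8.44e-06), S100a4 by 3.72 ± 0.62 (adjusted p 7.79e-05, edgeR), and Chil3, a chitinase-like protein of myeloid cells, also rose (adjusted p 7.93e-05). Cd36, a scavenger receptor, was lower by -1.39 ± 0.25 (adjusted p 0.000151). Mmp8 was the 1 gene of this list called higher in mid and late AVFs, by 5.35 ± 1.12 and 4.49 ± 1.09. Cd36 and Lrg1 were called lower at both times, Lrg1 by -2.09 ± 0.52 and -2.45 ± 0.53, and Hmgb1 was called lower in mid AVFs (-1.05 ± 0.24, adjusted p 0.00405, edgeR). Of the 4 called lower in late against early AVFs, Chil3 had the largest fall (-6.45 ± 1.46, adjusted p 0.00652), and S100a6, S100a10 and S100a11 were the others. Of 11 tested neutrophil markers, 5 were called higher early, with Ngp, a granule protein, at 9.63 ± 1.49 and Trem1 at 5.21 ± 1.23, and Csf3r and Ngp were the 2 called higher in mid and late AVFs. Il1r2, a decoy receptor for interleukin 1, was called lower in late AVFs (-2.54 ± 0.61, adjusted p 0.00652, edgeR). The neutrophil receptor Csf3r was called higher at all 3 times, by 6.87 ± 0.76, 5.97 ± 0.74 and 5.51 ± 0.73 (adjusted p 2.05e-07, 3.58e-06 and 9.86e-06).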

How the data were processed

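Poly(A) RNA of 25 vessels was sequenced in bulk, and the authors deposited raw counts per gene; single-cell matrices of 3 pools were deposited as UMI counts made with Cell Ranger 6.0.2 per the file headers. The submitters' notes name STAR and the builds mm10 and GRCm38; which tool and annotation made the bulk counts is not given in the sources used here. Groups came from the labels. The members and lists were chosen with earlier results of these data known.

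Genes with a mean size-factor-normalized count of at least 100 were tested in edgeR 4.0.16 (R 4.3.3) with TMM factors and a quasi-likelihood fit of all 4 groups. CPM values used TMM-scaled library sizes. DESeq2 1.42.0, edgeR's likelihood ratio test, other filters and scalings, a sex term and single-library omissions were alternatives. The fit was tested on simulated data. Replicates are separate samples in the labels; p-values measure the spread between them.

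Cells were required to have 200 to 6000 genes and no more than 10% mitochondrial UMIs, and were clustered in scanpy 1.11.5 (2000 variable genes, 12 components, Leiden resolution 0.5). Scrublet marked 0, 2 and 120 barcodes, which were kept; its calls in the first 2 pools are too few to have worked. Intervals cover counting error only. Exon lengths came from GENCODE on GRCm38. Named genes were the 9 members; of each list, up to 3 rises and 3 falls past the threshold and Il1b, Csf3r, Csf3 and Cxcr1; and the 3 genes most like each member. Other genes named in the text with counts of list members were chosen after their values were seen.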

Additional observations from a re-analysis of the deposited data

Results flagged for a closer look

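In 36 groups examined (9 genes in 4 groups, on the log2 CPM scale), 3 had 1 library standing apart from the rest, where chance flags about 1 in 20 groups of untied values; that rate need not hold for Cxcl3 and Cxcl5 in contralateral veins, where 5 of 7 libraries are tied at 0 counts. Contralateral vein 27 was the highest control for Cxcl3, at 0.395 CPM, and for Cxcl5, at 4.03 CPM, with a gap to the next library of 0.628 and 0.874 of the group's range. Late AVF 17 was the highest late library for Saa3, at 134 CPM, where the other 4 were at 11.9 to 23.7 CPM, with a gap of 0.714 of the range. Contralateral vein 35, which decided the Saa3 calls of the quasi-likelihood fit, did not stand apart by this measure on the log scale.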

How the results depend on the processing

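Over 11 other settings, 532 of 593 member differences kept direction and side of the threshold, as did 1314 of 1350 with 1 library left out. Members called against contralateral veins were 4 early, 1 mid and 1 late in female mice alone, 4, 2 and 1 in male mice alone, and 1 mid and 0 late with only the 2 groups in the fit; these fits use fewer samples. With every library included, early calls were 9 members with DESeq2 and with the likelihood ratio test. They were 8 with RLE size factors, with filterByExpr and with no filter, beside 7 in the main fit. With DESeq2, the likelihood ratio test, only the 2 groups and an adjusted p under 0.05, late against early gave 4, 3, 4 and 4. Leaving out 1 library gave 7 to 9 early, 4 to 6 mid, 4 to 5 late and 0 to 1 late-against-early calls, and 0 for mid against early and late against mid. Direction turned for Lcn2 mid (-0.67 in females; -0.18 without mid AVF 9 to 2.26 without vein 35), Lcn2 late (0.57 in males; -0.79 to 0.69 with 1 library left out, 0.69 without vein 35), Saa3 late (4.91 in males; -1.48 to 5.11, with 5.11, 0.082, 0.061 and 0.21 without vein 35 or late AVF 16, 19 or 24) and Cxcl1 late against mid (0.027 in males); the cause was not tested. Of 9 correlations with the neutrophil marker level, 8 passed 0.05, and 4 to 9 did with 1 early AVF left out, 4 without early AVF 1. In single cells, the class holding most UMIs was the same for 26 of 27 gene and pool pairs without a mitochondrial limit and for 27 at resolution 1.0 and without Scrublet-marked barcodes; the exception, contralateral Saa3, had 21 UMIs. The adjusted p under 0.05 and the prior count of 2 were chosen after seeing the data. No paired analysis was possible because no group shares replicate numbers. Over all genes, early calls were 1599, and 2440 with DESeq2, 3803 with filterByExpr, 3938 with no filter, 327 in females, 632 with only the 2 groups and 2520 at 0.05; mid calls were 767, and 1418, 2823, 2728, 192, 339 and 1421; late calls 676, and 1294, 2696, 2567, 173, 223 and 1304; late-against-early calls 381, and 753 with DESeq2, 625 with the likelihood ratio test, 587 with only the 2 groups, 208 with no filter, 0 in females, 2 in males and 795 at 0.05; mid-against-early calls 1, and 474, 356 and 482 with DESeq2, the likelihood ratio test and at 0.05. The likelihood ratio test gave 2166 early, 1158 mid and 1044 late calls, and males alone 1072, 292 and 233. With RLE size factors there were 1619 early calls. Low counts limit Cxcl2, Cxcl3, Cxcl5 and Cxcr2 in controls, where most libraries had no count. Controls had 11958 to 18283 genes with a count, fewer than any mid or late AVF. The part of this in those empty rows was not tested.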
